A study of Mus musculus with 16 samples.

Results

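The libraries described here are 4 of the series' 16 samples: primary lung fibroblasts labelled as ST2 knockout (KO) on the C57BL/6 strain, infected with an adenovirus and taken at 72 h. One KO library received the virus labelled AdV-FLIL33 (KO FL, full-length IL-33), one received AdV-MIL33 (KO M, mature IL-33) and 2 received AdV-NULL (KO NULL 1 and 2, no insert). The rule that picked these libraries used their labels and no measured value. The gene lists and comparisons were chosen with earlier results of these data known. The other 4 fibroblast samples are wild-type (WT) cells of the same strain given the same 3 viruses (1 WT FL, 1 WT M and 2 WT NULL libraries), and they serve here to estimate the spread and to test whether the response differs by genotype. The 8 samples of unseparated lung cells were not analysed here. The labels give neither the age and sex of the mice nor whether libraries of a group came from separate cultures or animals, so each p-value reflects the variation among these libraries, part of which may be technical.

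IL-33 is a cytokine of the IL-1 family that is stored in the nucleus of barrier and stromal cells and released on damage. Outside the cell it binds ST2, the product of Il1rl1, which pairs with the shared subunit encoded by Il1rap and signals through MyD88, IRAK kinases and TRAF6 to NF-kB. The full-length protein has an amino-terminal domain that binds chromatin and the mature form lacks it, so a response to the virus in cells without ST2 addresses effects that do not need the receptor.

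Normalized totals ran from 2.39e+07 to 2.92e+07 per library, and 15527 genes with a mean of at least 10 normalized counts over the 8 libraries were tested. KO NULL 2 was the most deeply sequenced of the KO libraries, at about 3.98e+07 reads against 2.37e+07 to 2.52e+07 for the others, by the value of 1 read in each library. The second deposited table, which the labels give to the unseparated cells, holds the same values, and the cell type is thus known from the titles of the columns. Fibroblast genes were high in all 4 libraries. The summed normalized counts of 16 fibroblast markers were 985763 in KO FL and 994849 in KO M, against 1052716 and 1043610 in KO NULL, and all 16 passed the filter. The WT M library stood apart from the rest, with 1290 to 1743 genes more than 2-fold away from each other library among 12559 genes with a mean of at least 50. For the IL-33 pair, where WT FL and WT M form a group, it enters the KO comparison through the shared estimate of spread. For FL, M and FL against M it is a group of its own, and the residual spread comes from the NULL pairs. There it can act through the mean level of each gene, on which the filter and the fitted trend of spread depend. The count of genes without it is given with each comparison.

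Il33 (chr19:29925114-29960718, + strand, GRCm38) was counted at unequal levels in the libraries given the IL-33 vectors. It was at 1080221 normalized counts in KO FL and 81110 in KO M, against 216 and 214 in the KO NULL libraries. KO FL thus held 13.3 times the counts of KO M, and the levels were 5019 and 377 times the KO NULL mean. The lengths of the inserts were not taken into account. The transcript made up 3.70% of all normalized counts in KO FL and 0.292% in KO M. In WT cells the levels were 593840 with FL and 248956 with M, a ratio of 2.39. The form of IL-33 and its amount therefore cannot be told apart in KO cells, and since AdV-NULL carries no transcript that can be counted here, neither can IL-33 and the dose of virus.

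Il1rl1 (chr1:40429570-40465415, + strand), the targeted gene, did not mark the genotype. It was at 79.2 normalized counts in KO FL and 85.2 in KO M, against 73.1 and 69.2 in KO NULL. The WT libraries held 33.9 with FL and 70.7 with M, against 18.3 and 106 with NULL. The 4 KO values lie inside the WT range, a total per gene does not show a missing exon, and the genotype was taken from the labels. With IL-33 in KO cells Il1rl1 moved by 0.21 on the log2 scale (SE 0.75, limma adjusted p = 1).

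**Figure D1:**
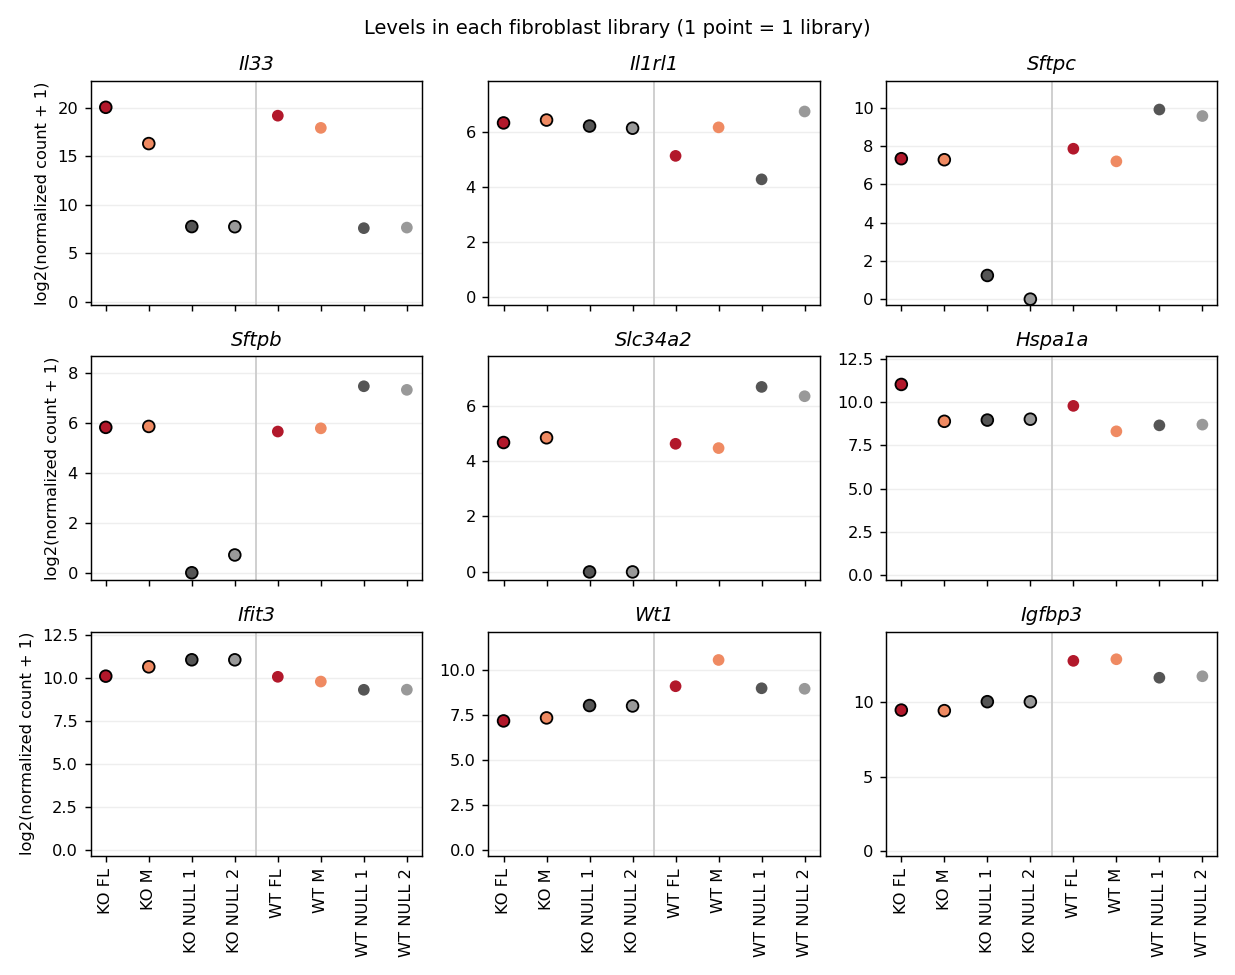
Levels of 9 genes in each of the 8 fibroblast libraries, as log2(normalized count + 1); each point is 1 library, KO libraries are left of the grey line and outlined in black, and the vertical axes start near 0 but differ in range. Il33 is high in both IL-33 libraries of each genotype, Sftpc, Sftpb and Slc34a2 are near 0 in the 2 KO NULL libraries only, and Hspa1a is highest in KO FL.

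Taken as a pair, the IL-33 libraries differed from the NULL pair in 3 genes, all of them markers of alveolar type 2 cells, the epithelial cells that make lung surfactant. Sftpc, Sftpb and Slc34a2 were present in both KO IL-33 libraries and at or near 0 in both KO NULL libraries. These were 3 of 15527 genes tested (0.0193%). No gene passed as lower (0% of genes tested), while 333 genes in either direction had an unadjusted p below 0.05. Il33 itself did not pass in the pair (log2 10.42, SE 1.07, limma adjusted p = 0.1163), where the difference between FL and M counts as spread. In a fit of 6 groups, where it does not, the pair gave 27 genes, 6 higher and 21 lower. The count was also 6 without WT M (4 higher and 2 lower), 8 without WT FL (4 higher and 4 lower), 0 without KO FL, WT NULL 1 or WT NULL 2, and 1 without KO M. All p-values are from limma's moderated test on log2(value + 1), two-sided, with Benjamini-Hochberg adjustment over all genes tested.

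Sftpc (chr14:70520949-70524081, − strand), which encodes surfactant protein C, was at 162 normalized counts in KO FL and 156 in KO M, against 1.36 and 0 in KO NULL. Sftpb (chr6:72304610-72314371, + strand), which encodes surfactant protein B, was at 55.8 in KO FL and 57.3 in KO M, against 0 and 0.639 in KO NULL. Slc34a2 (chr5:53038081-53071664, + strand), a sodium-phosphate cotransporter of the type 2 cell, was at 24.4 in KO FL and 27.6 in KO M and is listed at 0 in both KO NULL libraries. For each of the 3 genes the KO FL and KO M values lie close together and far from the NULL pair, although the Il33 levels of these libraries differ by 13.3-fold.

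The fitted log2 changes were 6.70 for Sftpc (SE 0.43, limma adjusted p = 0.0106), 5.49 for Sftpb (SE 0.33, limma adjusted p = 0.0106) and 4.75 for Slc34a2 (SE 0.34, limma adjusted p = 0.0154). With NULL values at or near 0, these sizes depend on the added 1 and are not bounds. The call for all 3 was lost when only the 4 KO libraries were fitted and when KO FL, KO M, WT NULL 1 or WT NULL 2 was left out of the fit. Slc34a2 was also lost with an added 8 in place of 1 (limma adjusted p = 0.1669), without KO NULL 1 (limma adjusted p = 0.1100) and without KO NULL 2 (limma adjusted p = 0.0836). WT cells held the same transcripts in every library. Sftpc was at 233 in WT FL and 147 in WT M, against 969 and 765 in WT NULL, so the KO NULL pair is the one arm of the 8 libraries that lacked it.

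None of the other tested members of the type 2 list passed. Sftpa1, another surfactant protein gene, was at 8.91 in KO FL and 16.7 in KO M, against 0 and 0.451 in KO NULL, and Cxcl15, a lung chemokine, was at 6.97 and 12.2, against 0 and 0. Sftpd and Lamp3, both below the filter, were at 3.32 to 9.30 in the IL-33 libraries and listed at 0 in KO NULL. Nkx2-1, the transcription factor of lung epithelium, was at 9.36 in KO FL and 10.6 in KO M, against 4.76 and 3.56 in KO NULL, also below the filter. Abca3, Etv5 and Lpcat1, which many other cells also express, were at 421 or more in all 4 KO libraries. Of 11 tested members, 7 were higher in both IL-33 libraries than in both NULL libraries and 1 was lower, where 20.6% of all genes tested were higher and 22% were lower by that rule. The 7 include Sftpc, Sftpb and Slc34a2, already called above. Members low in KO cells could pass the filter through their WT values. This count is thus a description and not a separate result.

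Markers of other epithelial cells moved less and none passed. Cldn18, an alveolar type 1 junction gene, was at 14.3 in KO FL and 11 in KO M, against 2.11 and 2.52 in KO NULL, and Ager, another type 1 marker, was at 29.9 and 36.1, against 14.1 and 19.7. Of 7 tested type 1 markers, 5 had a log2 change above 0 for the pair and 2 below (median 0.11). Among all genes tested, 49.1% were above 0. The summed level of 8 type 1 markers was 8713 in KO FL and 8229 in KO M, against 7933 and 8044 in KO NULL. The summed level of 12 airway epithelial markers was 206 in KO FL and 207 in KO M, against 119 and 130 in KO NULL, with 3 of the 12 at 0 in all KO libraries. In bulk RNA a change in the number of cells of one type and a change in their RNA per cell cannot be told apart. Whether the type 2 transcripts came from epithelial cells in the culture was not tested.

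Predicted gene models (Gm or Rik names, or no symbol) and genes with a mean below 50 were left out of the next ranking. Beyond the genes above and Il33, the smallest p-values among higher genes then belonged to Trim2, Greb1, Sema7a, Ret, Glb1l2 and Ska2. None of these passed (limma adjusted p = 1 for each). Greb1, an estrogen-induced gene, was at 140 in KO FL and 113 in KO M, against 48.8 and 55.6 in KO NULL (log2 1.26, SE 0.31). Ret, a receptor tyrosine kinase, was at 104 and 78.9, against 43.7 and 52.3 (log2 0.91, SE 0.24). Trim2, a ubiquitin ligase, was at 1023 and 839, against 635 and 589 (log2 0.60, SE 0.12). In Greb1, Ret and Trim2, picked for their small p, both IL-33 values were above both NULL values, as for 20.6% of all genes tested. KO FL was the highest of the 4 libraries in each.

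By the same ranking, the smallest p among lower genes belonged to Igfbp3, a secreted binding protein of insulin-like growth factors. It was at 701 normalized counts in KO FL and 683 in KO M, against 1036 and 1031 in KO NULL. The pairs were separated by more than their own spread (log2 −0.58, SE 0.078), and the change did not pass (limma adjusted p = 0.5275). C4b, a complement component, was at 551 and 561, against 948 and 907 (log2 −0.74, SE 0.13, limma adjusted p = 1). Gas1, a growth arrest gene, was at 320 and 323, against 426 and 427 (log2 −0.41, SE 0.093, limma adjusted p = 1). The other named genes on this side were Gbp3, Pex5l, Ifi44, Ly6a, Plekhm3, Atxn1 and B3galnt2, at log2 changes of −0.30 to −0.70, and none of them passed.

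As a description with no test, the genes set at least 1.5-fold apart between the KO pairs were few. Of 12559 genes with a mean of at least 50, 14 had both IL-33 values at least 1.5 times the higher NULL value (0.111%) and 21 had both at least 1.5 times below the lower NULL value (0.167%). The higher set included Cd74, the invariant chain of MHC class II, at 36.5 in KO FL and 50.9 in KO M, against 19.2 and 17.7 in KO NULL. It also included Hist2h2aa1, Phf19 and Tube1. The lower set included Stxbp6, at 3.47 and 5.63 against 34.4 and 51.3, Gsta4, a glutathione transferase, at 19.7 and 24.3 against 47.9 and 43.8, and Erbb4, a receptor tyrosine kinase, at 1.90 and 3.61 against 6.68 and 10.7. Nxph1, Ptprq, Crb2, Neto1, Coq8a, Olfr78 and Syt10 completed the 10 largest of the lower set. The mean of at least 50 is over all 8 libraries, so genes low in KO cells could reach it through WT values. Erbb4, Syt10 and Stxbp6 were among those that did, at 238, 478 and 208 in WT M. Syt10 was at 4.65 in KO FL and 6.63 in KO M, against 11.8 and 12.7 in KO NULL. Such KO values are near the floor.

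With the full-length virus alone, KO FL differed from the KO NULL pair in 37 of 15527 genes (0.238%), 11 of them higher (0.0708%) and 26 lower (0.167%), with 2085 genes at an unadjusted p below 0.05. The fit has 6 groups, in which the pair gave 27. Besides Il33 and the 3 surfactant genes, the heat-shock genes Hspa1a and Hspa1b were higher, and among the lower genes 7 were interferon-induced. Of the 37 genes, 32 were protein coding, and 8 had a library listed at 0. This comparison has 1 FL library and assumes that it varies like the NULL pairs.

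**Figure D2:**
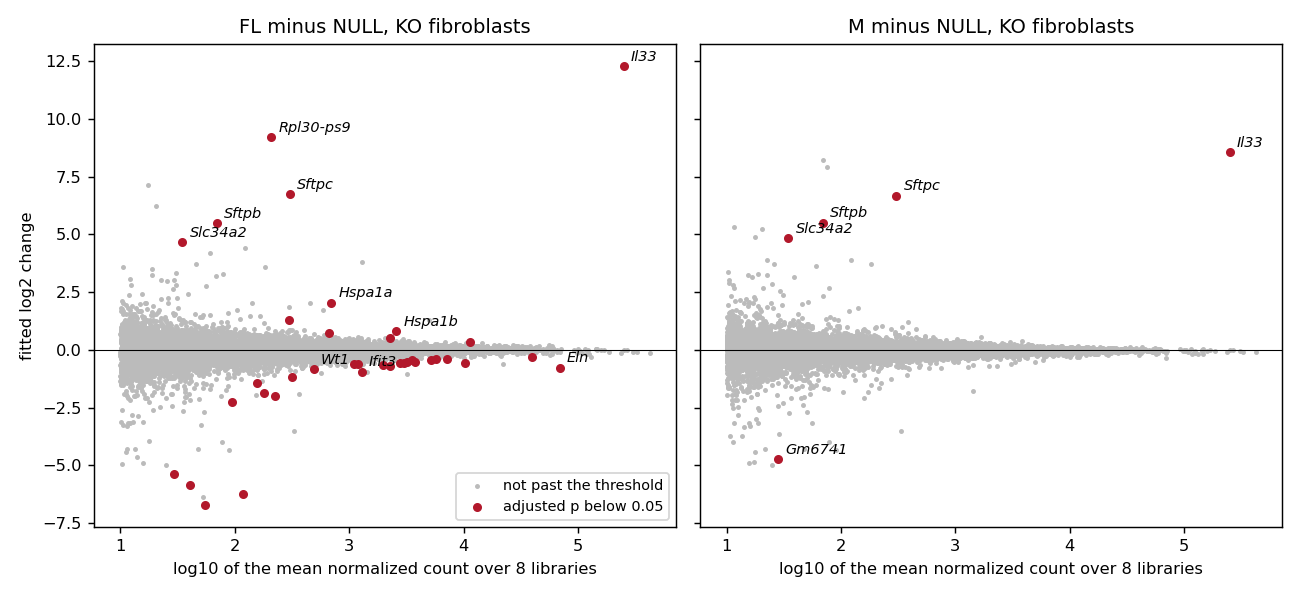
Fitted log2 change against the log10 of the mean normalized count over 8 libraries for 15527 genes, KO FL minus KO NULL on the left and KO M minus KO NULL on the right; each point is a gene and red points have an adjusted p below 0.05. There are 37 red genes on the left and 5 on the right, and both panels share the same NULL libraries.

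Nearly all of the 26 lower calls were lost without KO NULL 1, and likewise without KO NULL 2. The count of 37 depends on single libraries, and the counts that follow can include genes outside the 37. It was 6 without KO NULL 1, 15 without KO NULL 2, 22 without WT M, 15 without WT NULL 1 and 14 without WT NULL 2, 21 with the 4 KO libraries alone, and 732 with no filter on low values.

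Hspa1a (chr17:34969190-34972156, − strand) encodes the inducible cytosolic chaperone Hsp70, a classical marker of the heat-shock response. It was at 2081 normalized counts in KO FL and 474 in KO M, against 498 and 516 in KO NULL. Only the FL library was high, and KO M lay just below the NULL pair. The log2 change with FL was 2.04 (SE 0.090, limma adjusted p = 9.00e-04), and it passed in every alternative fit that was run. The direct contrast of KO FL with KO M gave 2.13 (SE 0.10, limma adjusted p = 0.0018).

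Hspa1b (chr17:34956436-34959238, − strand) is a neighbouring and nearly identical copy, so reads could be split between the 2 genes. It was at 4876 in KO FL and 2647 in KO M, against 2788 and 2749 in KO NULL, a log2 change of 0.82 with FL (SE 0.059, limma adjusted p = 0.0062). The call was lost without KO NULL 1 or KO NULL 2 (limma adjusted p = 0.1167 and 0.0701). The sum of both copies, which splitting does not touch, was 6957 in KO FL and 3121 in KO M, against 3286 and 3265 in KO NULL, or 2.12 and 0.953 times the NULL mean. In WT cells the sum was 3795 with FL and 1219 with M, against 2301 and 2229 with NULL.

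The other 15 of 17 heat-shock chaperones on the list did not pass with FL, where 0.0708% of all genes tested passed as higher. Hspa4l was at 1286 in KO FL and 951 in KO M, against 942 and 887 in KO NULL (FL log2 0.49, limma adjusted p = 0.1220). Hsph1 was at 3979 and 3124, against 3112 and 3296 (FL log2 0.31, limma adjusted p = 0.1222), while Dnajb1, an Hsp40 co-chaperone, was at 1908 and 1804, against 1681 and 1704. Hspd1 and Hspe1, the mitochondrial chaperonins, had log2 changes of 0.080 and 0.084 with FL. The list's median log2 change was 0.098 with FL and −0.040 with M, where the medians of all tested genes were 0.000 and −0.004.

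The remaining higher genes in KO FL were Alpk2, Trim2, Errfi1, Timp1 and the pseudogene Rpl30-ps9. Alpk2, an alpha-kinase, was at 564 in KO FL and 234 in KO M, against 237 and 225 in KO NULL (log2 1.28, SE 0.13, limma adjusted p = 0.0316). Errfi1, a feedback inhibitor of the EGF receptor, was at 4114 and 3160, against 2897 and 2833 (log2 0.52, SE 0.058, limma adjusted p = 0.0439). Timp1, an inhibitor of matrix metalloproteinases, was at 18442 and 14964, against 14418 and 14572 (log2 0.35, SE 0.042, limma adjusted p = 0.0449). Rpl30-ps9 was at 586 in KO FL and listed at 0 in KO M and both KO NULL libraries. It was also present in WT FL and WT M, at 101 and 972, and listed at 0 in WT NULL. As a processed pseudogene it shares sequence with Rpl30, so its value is uncertain.

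A minority of interferon-induced genes passed as lower in KO FL, and these calls were lost without either KO NULL library. Of 39 tested members of the interferon response list, 6 passed as lower with FL and none as higher, and 1 of 11 tested guanylate-binding proteins and immunity-related GTPases passed as lower, where 0.167% of all genes did. They included Ifit3, Ifit1, Irf7, Ifi44, Isg15 and Gbp3. The median log2 change over the interferon list was −0.32 with FL and −0.16 with M, and over the GTPase list −0.40 with FL and −0.19 with M. Both IL-33 libraries were below both NULL libraries for 30 of 39 interferon genes and 10 of 11 GTPase genes, and above for 2 and 0, where 22% of all genes tested were below. The FL and M comparisons share the KO NULL pair.

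The promoters of 3 of these genes are shown because they hold a motif like the interferon-stimulated response element, to which interferon-activated factors bind. Each line is the 250 bases before a RefSeq gene start (GRCm38.p6), 5′ to 3′ on the gene's strand, and capitals mark 2 copies of GAAA with any 2 bases between them, on either strand and including overlapping matches.
Ifit3 (chr19:34583279-34583528, + strand): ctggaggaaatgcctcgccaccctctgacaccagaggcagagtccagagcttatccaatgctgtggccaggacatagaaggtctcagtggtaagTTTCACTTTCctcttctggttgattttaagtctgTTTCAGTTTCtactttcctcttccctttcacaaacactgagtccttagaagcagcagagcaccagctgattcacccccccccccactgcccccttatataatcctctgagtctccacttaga
Ifit1 (chr19:34640639-34640888, + strand): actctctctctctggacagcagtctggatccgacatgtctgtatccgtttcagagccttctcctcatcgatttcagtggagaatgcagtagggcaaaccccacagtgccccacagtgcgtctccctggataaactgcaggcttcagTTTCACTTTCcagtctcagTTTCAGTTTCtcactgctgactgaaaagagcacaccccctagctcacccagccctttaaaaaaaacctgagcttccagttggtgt
Isg15 (chr4:156200819-156201068, − strand): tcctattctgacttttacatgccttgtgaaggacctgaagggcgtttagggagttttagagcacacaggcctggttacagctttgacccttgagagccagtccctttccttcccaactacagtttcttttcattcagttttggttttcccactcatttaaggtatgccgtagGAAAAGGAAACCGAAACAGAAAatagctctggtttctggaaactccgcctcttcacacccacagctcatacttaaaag

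The matches begin 156 and 122 bases before the start in Ifit3, 104 and 85 in Ifit1, and 78, 72 and 66 in Isg15, where they overlap. Of the 7 lower interferon genes, 6 had a promoter in the table, with 7 windows in all. A match was held by 4 of the 7 windows, those of Ifit3, Ifit1, Isg15 and Gbp3. The genes come from lists of interferon-induced genes, and list members that were not called were not examined. Over all promoters in the table, 978 of 32851 windows of that length held one (2.98%). A match is a description of these letters and not evidence of binding in these cells.

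Ifit3 (chr19:34583531-34588731, + strand), an antiviral protein of the IFIT family, was at 1116 normalized counts in KO FL and 1625 in KO M, against 2158 and 2155 in KO NULL. The 2 NULL values nearly coincide, KO M lies between them and KO FL, and the log2 change with FL was −0.95 (SE 0.068, limma adjusted p = 0.0062). Ifit3b, a near-identical neighbour that could share reads with it, was at 583 in KO FL and 664 in KO M, against 922 and 903 in KO NULL (FL log2 −0.64, limma adjusted p = 0.1220). The sum of both was 1699 in KO FL and 2290 in KO M, against 3080 and 3058 in KO NULL.

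Ifit1, of the same family, was at 2836 in KO FL and 3481 in KO M, against 4104 and 4212 in KO NULL (FL log2 −0.55, SE 0.060, limma adjusted p = 0.0439). Irf7, the transcription factor that amplifies interferon production, was at 4559 and 5535, against 6642 and 6448 (FL log2 −0.52, SE 0.060, limma adjusted p = 0.0439). In both of these genes KO FL was lowest, KO M was intermediate and the NULL pair was highest.

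Isg15, a ubiquitin-like modifier, was at 5998 in KO FL and 6917 in KO M, against 8015 and 7754 in KO NULL (FL log2 −0.39). Ifi44 was at 5595 and 6339, against 7686 and 7571 (FL log2 −0.45), and Gbp3, an interferon-induced GTPase, was at 1055 and 1272, against 1616 and 1653 (FL log2 −0.63). Gbp6 and Gbp4, of the same GTPase family, had larger changes from low levels that did not pass. Gbp6 was at 41.6 in KO FL and 85.5 in KO M, against 127 and 126 in KO NULL (FL log2 −1.58, limma adjusted p = 0.0927).

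Against the run of the list, Mx1 was at 68.5 in KO FL and 117 in KO M, against 40.2 and 49.4 in KO NULL, and Ifi27 was at 2784 and 2288, against 2145 and 2068. Neither passed (FL limma adjusted p = 0.4938 and 0.0848). The interferon regulators Irf9 and Irf1 were near the NULL level, with FL log2 changes of −0.005 and −0.093. With M alone no member of either list passed, and in the direct contrast of FL with M none did either. The number of lower calls with FL on the 2 lists was 7 in the fit reported here and 5 without WT M, 1 without WT NULL 1 or WT NULL 2, 0 without either KO NULL library, 4 with the KO libraries alone and 2 with no filter on low values.

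**Figure D3:**
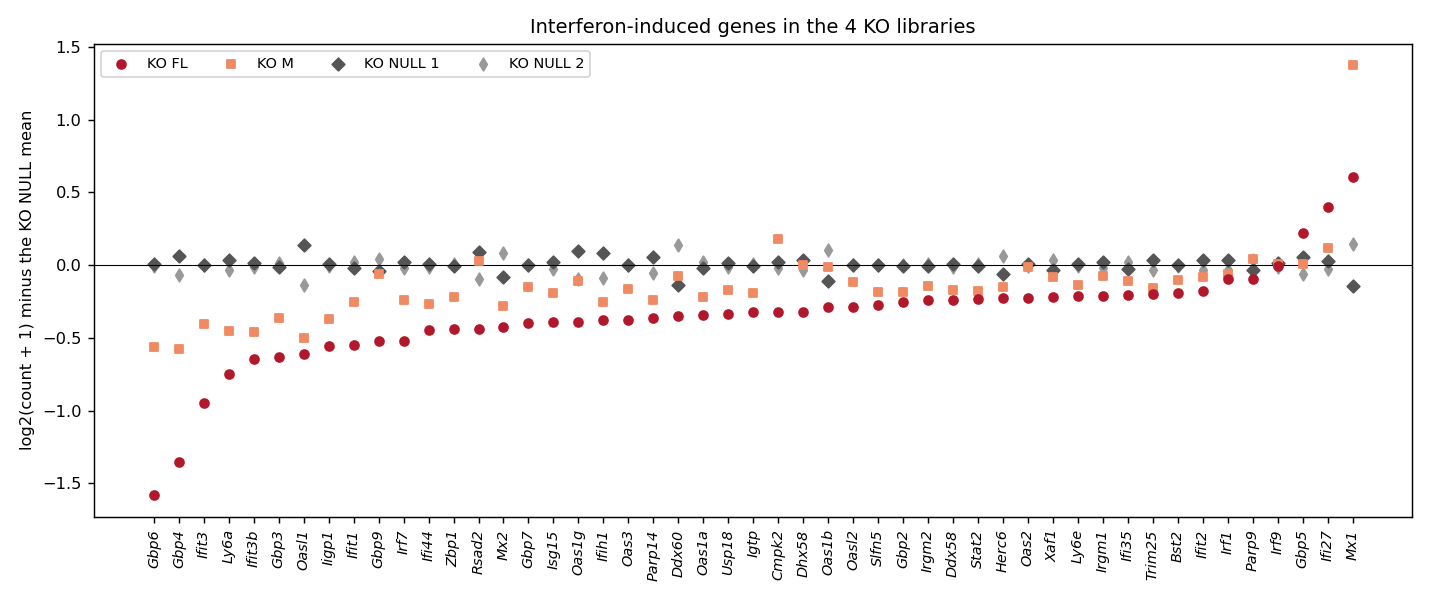
Level of 49 tested interferon response and GTPase genes in the 4 KO libraries, as log2(normalized count + 1) minus the mean of the 2 KO NULL libraries; genes are ordered by KO FL. KO FL is below the line for most genes, KO M lies between KO FL and the line for most of them, and KO FL is above it for Mx1, Ifi27 and Gbp5.

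MHC class I and antigen processing genes lay on the same side with small changes that did not pass. All 14 tested members had a log2 change below 0 for the IL-33 pair (median −0.13), and both IL-33 libraries were below both NULL libraries for 10 of them, where 22% of all genes tested were. H2-K1, a class I heavy chain, was at 8308 in KO FL and 8673 in KO M, against 9222 and 9403 in KO NULL. Among complement genes, C3 was at 2152 and 2143, against 2761 and 2692, and the sum of the near-identical copies C4a and C4b was 580 and 603, against 1054 and 968. None of 14 complement genes passed in the pair or with either virus.

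Matrix and mesothelial genes made up part of the remaining lower genes in KO FL. Eln (chr5:134702593-134747323, − strand), which encodes elastin, was at 5323 in KO FL and 7088 in KO M, against 9082 and 9151 in KO NULL (FL log2 −0.78, SE 0.055, limma adjusted p = 0.0062). The call was lost without KO NULL 1, without KO NULL 2 and with no filter on low values. In WT cells Eln was at 68999 with FL and 18425 with M, against 228091 and 208660 with NULL. Eln was the 1 lower call among 28 collagen and matrix genes, where 0.167% of all genes tested were called lower. The median log2 change of the 28 genes with FL was −0.062. Col1a1, the main fibrillar collagen chain, was at 278106 in KO FL and 283912 in KO M, against 294453 and 293384 in KO NULL (FL log2 −0.080, limma adjusted p = 0.4394). Lox, a collagen and elastin crosslinker, was at 101004 and 110769, against 125488 and 125006 (FL log2 −0.31, limma adjusted p = 0.0592). Timp3, a matrix-bound metalloproteinase inhibitor, was at 38974 and 40981, against 47933 and 47707 (FL log2 −0.30, SE 0.034, limma adjusted p = 0.0439).

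Wt1, a transcription factor of mesothelial cells, was at 145 in KO FL and 163 in KO M, against 263 and 259 in KO NULL (FL log2 −0.84, SE 0.10, limma adjusted p = 0.0455). It was the 1 call among 7 tested mesothelial markers, where 0.167% of all genes tested were called lower with FL. Lrrn4 was at 6.97 and 9.95, against 36.6 and 32.5, Upk3b was at 73.2 and 33.2, against 112 and 102, and Krt7 was at 52.2 and 46.7, against 19.8 and 40.9. The summed level of the mesothelial list was 468 in KO FL and 386 in KO M, against 662 and 671 in KO NULL, and both IL-33 libraries were lower for 5 of 7 markers and higher for 1, where 22% of all genes tested were lower and 20.6% higher. The part of mesothelial cells in the lower calls was not tested. Msln was at 65.5 and 46.0, against 72.8 and 80.9.

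Cxadr (chr16:78301489-78359774, + strand), which encodes the cell surface receptor used by coxsackieviruses and many adenoviruses, was at 102 in KO FL and 135 in KO M, against 240 and 219 in KO NULL (FL log2 −1.16, SE 0.13, limma adjusted p = 0.0439). Both IL-33 libraries were below both NULL libraries, as for 22% of all genes tested. In WT cells Cxadr was at 322 with FL and 1097 with M, against 215 and 209 with NULL.

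The neural or epithelial genes Crb2, Ptprq and Nxph1 and the olfactory receptor Olfr78 were also lower with FL, from low levels. Nxph1 was at 13.6 in KO FL and 17.3 in KO M, against 53.5 and 51.0 in KO NULL (FL log2 −1.86, SE 0.21, limma adjusted p = 0.0439). Piezo2, a mechanically gated channel, was at 529 and 698, against 836 and 901 (FL log2 −0.71, SE 0.073, limma adjusted p = 0.0368), and Baiap2l1 was at 297 and 290, against 487 and 457. Outside the naming rule, and given after their values were seen, the other lower protein-coding genes were Ago1, Fndc1, Podn and Gas6, a ligand of TAM receptors that was at 4093 and 4425, against 5280 and 5452. Igfbp3 also passed as lower with FL (log2 −0.56, SE 0.066, limma adjusted p = 0.0447).

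The 4 gene models without a coding product, Gm43535, Gm47204, Gm7887 and Rpl14-ps1, are listed at 0 in KO FL. Gm43535 was at 112 in KO M and at 108 and 99.4 in KO NULL. A 0 of this kind can be a failed estimate for transcripts that share reads with others.

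The mature virus alone differed from the KO NULL pair in 5 of 15527 genes (0.0322%), with 1268 at an unadjusted p below 0.05. The 4 higher genes (0.0258% of those tested) were Il33, Sftpc, Sftpb and Slc34a2, and the 1 lower gene (0.00644%) was the pseudogene Gm6741, which is listed at 0 in KO M and was at 30.2 in KO FL and 30.7 and 21.3 in KO NULL. The log2 changes of the surfactant genes with M were 6.67 for Sftpc, 5.51 for Sftpb and 4.84 for Slc34a2, beside 6.73, 5.47 and 4.67 with FL. The count for M was 6 without WT M, 1 without WT NULL 1 or WT NULL 2, 3 without WT FL and 814 with no filter on low values.

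In the direct contrast of KO FL with KO M, 8 of 15527 genes differed (0.0515%), with 1229 at an unadjusted p below 0.05. Higher with FL were Il33 (log2 3.74, SE 0.052, limma adjusted p = 7.92e-07), Hspa1a, Hspa1b, Rpl30-ps9 and Gm6741. Lower with FL were Rpl14-ps1, Gm43535 and Gm47204. Leaving aside the vector's own transcript, Hspa1a and Hspa1b were thus the protein-coding genes that separated the libraries, with 1 library on each side. The count was 9 without WT M, 5 without KO NULL 1 and 1271 with no filter.

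Apart from Il33 itself, no gene of the signalling route downstream of ST2 passed in KO cells. Il1rap was at 1391 in KO FL and 1283 in KO M, against 1448 and 1371 in KO NULL, and Myd88 was at 1240 and 1204, against 1115 and 1254. Of 14 tested genes of the receptor complex and MyD88 pathway, none passed in the pair, and with FL or with M alone Il33 was the 1 that passed.

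NF-kB dependent cytokines, chemokines and feedback genes stayed near the NULL level, and none of 27 tested members passed in the IL-33 pair or with either virus. The median log2 change was −0.008 for the pair, −0.049 with FL and −0.007 with M. Il6 was at 966 in KO FL and 960 in KO M, against 1053 and 1041 in KO NULL, and Ccl2, a monocyte chemokine, was at 754 and 871, against 746 and 779. Cxcl1, a neutrophil chemokine, was at 29.4 and 35.5, against 27.0 and 32.7, and Tnfaip3, the feedback inhibitor A20, was at 521 and 534, against 499 and 538. The IL-33 and NULL values overlapped in Ccl2, Cxcl1 and Tnfaip3. In Il6 both IL-33 values lay below both NULL values, as for 22% of all genes tested. Among type 2 immunity genes, Il4ra was at 3707 and 3464, against 3433 and 3691, and none of 9 tested members passed.

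Cell cycle genes were slightly higher, with no call. All 18 tested members had a log2 change above 0 for the IL-33 pair (median 0.25, where 49.1% of all genes were above 0), and both IL-33 libraries were above both NULL libraries for 13 of them, where 20.6% of all genes tested were. Mcm6, a subunit of the replicative helicase, was at 1127 in KO FL and 1078 in KO M, against 847 and 884 in KO NULL (FL limma adjusted p = 0.1443). Top2a, a topoisomerase of dividing cells, was at 1309 and 1157, against 972 and 1027 (FL limma adjusted p = 0.1636), and Mki67 was at 1284 and 1201, against 1145 and 1088.

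Immediate early genes had a median log2 change of 0.15 for the pair, with 10 of 16 higher and 1 lower in both IL-33 libraries, where 20.6% of all genes tested were higher and 22% lower, and none passed. Nr4a1, an orphan nuclear receptor, was at 2125 in KO FL and 2003 in KO M, against 1667 and 1780 in KO NULL. The median over cholesterol synthesis genes was −0.10, with 12 of 19 lower and 1 higher in both, against the same shares of all genes. Macrophage markers, which the cultures also held, had a median of 0.054 and a summed level of 26435 in KO FL and 25585 in KO M, against 23922 and 23576 in KO NULL. Lyz2, a lysozyme of macrophages, was at 17533 and 16802, against 15421 and 15329 (FL limma adjusted p = 0.2269).

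**Figure D4:**
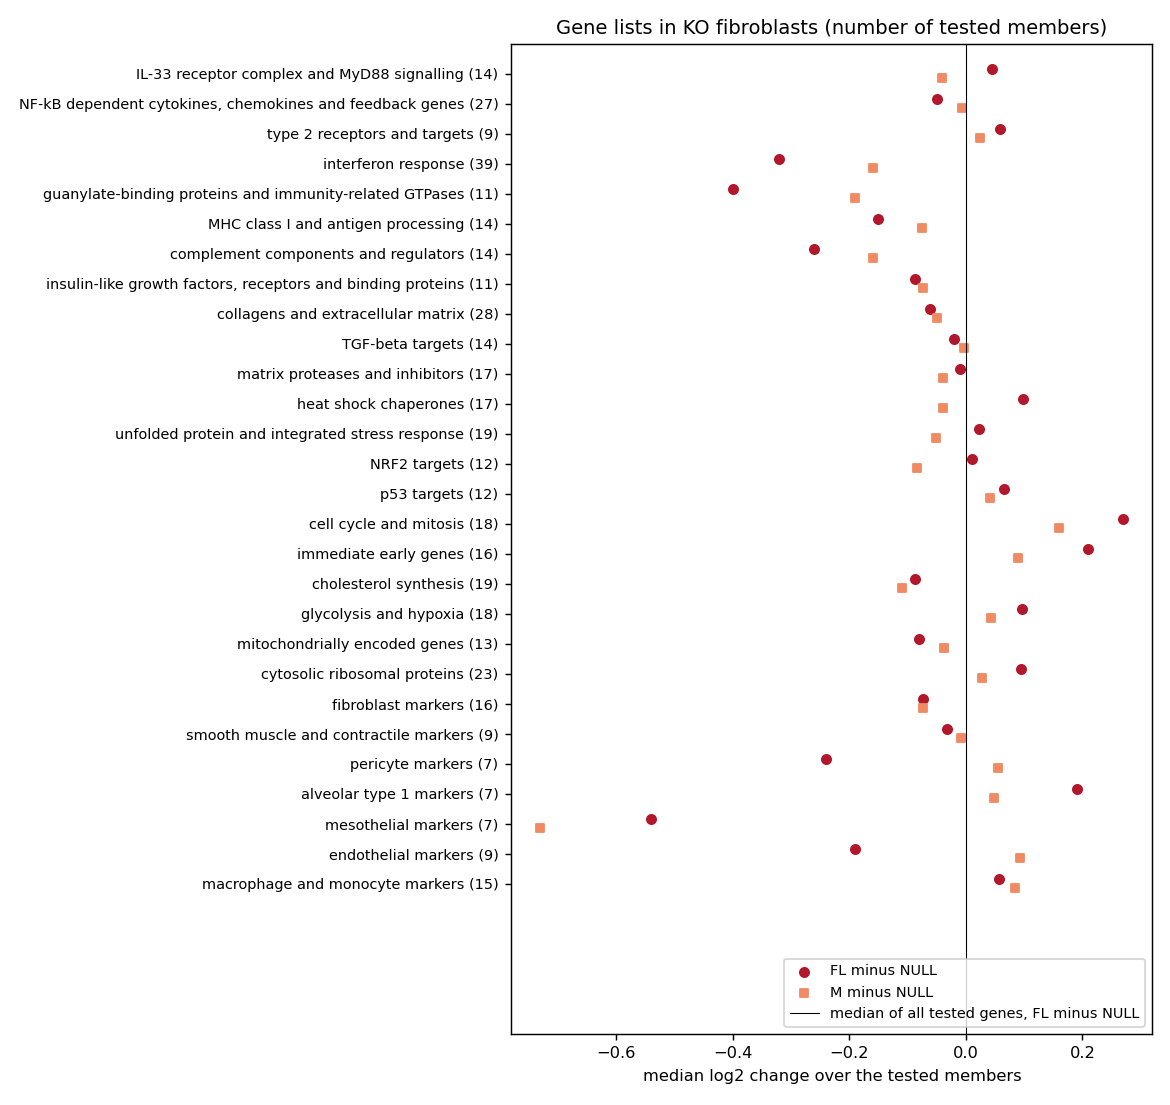
Median log2 change over the tested members of each gene list with at least 5 tested members, for KO FL minus KO NULL (circles) and KO M minus KO NULL (squares); the number of members is in brackets, the vertical line is the median of all tested genes with FL, and the alveolar type 2 list is left out because its leading members are at or near 0 in KO NULL. Most medians lie near 0, the interferon and GTPase lists lie at −0.32 and −0.40 with FL, the mesothelial list is lowest, and the cell cycle list is highest.

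The IL-33 effect differed between KO and WT cells in 20 of 15527 genes (0.129%), 6 with a more positive change in KO cells (0.0386%) and 14 with a more negative one (0.0902%), and 1398 had an unadjusted p below 0.05. Of the 14 genes with a more negative change, 6 were on the interferon or GTPase lists: Ly6a, Zbp1, Oas2, Slfn5, Iigp1 and Ly6e. Over the interferon list the median log2 difference was −0.70, with a median change of −0.20 in KO cells and 0.42 in WT cells.

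Ly6a (chr15:74994877-74998031, − strand), the stem cell antigen Sca-1 and an interferon-induced gene, was at 514 in KO FL and 630 in KO M, against 884 and 844 in KO NULL. In WT cells it was at 393 with FL and 422 with M, against 93.4 and 113 with NULL. The fitted changes were −0.60 in KO cells and 1.98 in WT cells, a difference of −2.58 (SE 0.21, limma adjusted p = 0.0124). The KO libraries with IL-33 were lower than their NULL pair and still above all WT libraries.

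Zbp1, a sensor of viral nucleic acid, was at 1222 in KO FL and 1423 in KO M, against 1650 and 1665 in KO NULL. In WT cells it was at 527 and 635, against 149 and 128, and the difference of the log2 changes was −2.39 (SE 0.20, limma adjusted p = 0.0124). Oas2, a sensor of double-stranded RNA, was at 451 and 524 against 530 and 526 in KO cells, and at 333 and 299 against 71.4 and 61.6 in WT cells, a difference of −2.35 (SE 0.20, limma adjusted p = 0.0138). In both genes the KO NULL libraries held the highest levels of the 8 libraries.

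Igfbp3 (chr11:7206086-7213923, − strand) was lower with IL-33 in KO cells by the values given above and higher in WT cells, at 6917 with FL and 7452 with M, against 3157 and 3380 with NULL. The difference of the log2 changes was −1.72 (SE 0.11, limma adjusted p = 0.0077). C4b was at 320 and 324 in WT cells, against 141 and 113 with NULL, and the difference was −2.08 (SE 0.19, limma adjusted p = 0.0158).

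On the positive side, Ramp1, an accessory protein of the receptor for calcitonin gene-related peptide, was at 178 in KO FL and 156 in KO M, against 150 and 144 in KO NULL, and at 44.5 and 41.4 in WT cells, against 167 and 183 with NULL. The difference of the log2 changes was 2.18 (SE 0.23, limma adjusted p = 0.0420). Cspg4, a proteoglycan of pericytes, was at 1949 and 2041, against 1733 and 1774, in KO cells and at 463 and 422, against 911 and 960, in WT cells (difference 1.26, SE 0.12, limma adjusted p = 0.0245). Sftpc, Sftpb and Slc34a2 also differed, by 8.92, 7.17 and 6.71. They were near 0 only in KO NULL. Their fitted log2 changes in WT cells were −2.21, −1.68 and −1.96, and none of these passed (limma adjusted p = 0.1033, 0.1033 and 0.0908).

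NF-kB genes had a median difference of −0.91, with a median of 0.82 in WT cells, yet none of 27 passed in this test. Cxcl1 was at 730 in WT M and 50.6 in WT FL, against 13.1 and 18.3 in WT NULL, while KO M held 35.5. The number of genes whose effect differed was 0 without KO FL, KO M or WT NULL 2, 1 without WT NULL 1, 2 without KO NULL 1, 3 without KO NULL 2, 489 without WT M and 5604 without WT FL, so single libraries set this count. In the fit of 6 groups, which does not count the difference between WT FL and WT M as spread, it was 3188.

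**Figure D5:**
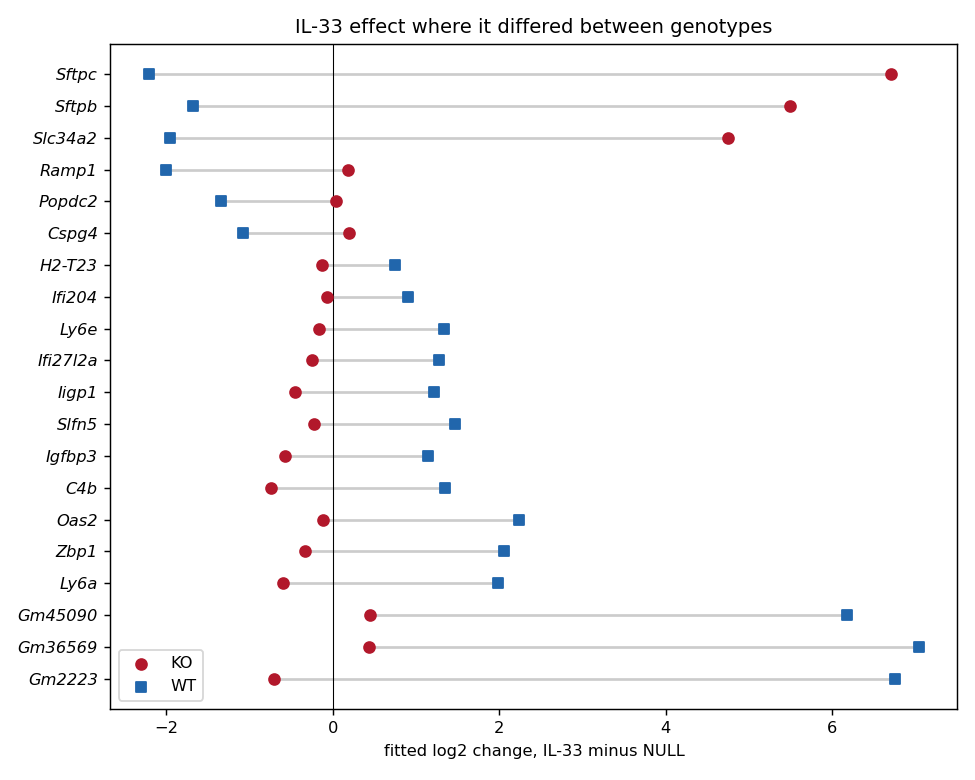
Fitted log2 change with IL-33 against NULL in KO cells (circles) and in WT cells (squares) for the 20 genes where the effects differed at an adjusted p below 0.05. The KO values of all but Sftpc, Sftpb and Slc34a2 lie between −0.74 and 0.45, while the WT values lie on both sides of 0.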

How the data were processed

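The deposited tables hold normalized counts per gene (a signal that is not whole numbers), which the authors made with Salmon and DESeq2 on GRCm38.p6, per the submitters' processing notes; versions, library kit and strand setting are not given in the sources used here. The 2 tables were compared value by value (434648 values, 2 not identical, largest relative difference 6.5e-15). Both list 54331 genes, of which 30284 were above 0. Symbols and positions came from GENCODE M21, and 234 IDs had no symbol. The most common low value put 1 read at 0.707 to 1.18 normalized counts. Within 0.02 of a read, 50.4% to 70.9% of values up to 12 were whole multiples, so whole reads were not recovered and no count test was run. Counting error therefore cannot be given per value.

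Values were taken to log2 after adding 1, and fold changes on that scale understate the change of low genes. Those genes whose mean reached 10 normalized counts across the 8 fibroblast libraries entered a limma-trend fit in R 4.3.3 with limma 3.58.1 (two-sided), with Benjamini-Hochberg adjustment per comparison and a threshold of 0.05. The IL-33 pair and the genotype difference came from 4 groups (4 residual and 2.82 prior degrees of freedom), in which FL and M are the 2 IL-33 samples. FL, M and FL against M came from 6 groups (2 residual and 4.78 prior degrees of freedom). The fit was tested on simulated data.

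The members, the 33 gene lists and the comparisons were chosen with earlier results of these data known. Named genes were Il33, Il1rl1, up to 10 genes per direction past the threshold (15 for FL), the smallest p-values up to 10 per direction for the pair, up to 4 per list, and the 10 largest each way of those set 1.5-fold apart. The choice by smallest p left out predicted gene models (Gm or Rik names, or no symbol) and genes with a mean below 50. Alternatives were other added values, other filters, trimmed-mean (TMM) scaling computed on the deposited values, quantile normalization, other groupings, a replicate block, and fits with 1 library removed. Python 3.11.15, numpy 2.4.6, pandas 2.3.3 and matplotlib 3.10.9 were used for tables and figures. One gene of the lists is not reported here by name.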

Additional observations from a re-analysis of the deposited data

Results flagged for a closer look

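The genes below stood out because the test of the difference itself found another IL-33 effect in KO than in WT cells, and each value is the log2 change in KO minus that in WT. The difference was 8.92 for Sftpc, 7.17 for Sftpb and 6.71 for Slc34a2, which were near 0 in KO NULL and highest in WT NULL. It was 2.18 for Ramp1, 1.38 for Popdc2 and 1.26 for Cspg4, where the fall lay in WT cells. It was −2.58 for Ly6a, −2.39 for Zbp1, −2.35 for Oas2, −1.70 for Slfn5 and −1.67 for Iigp1, all interferon-induced, and −2.08 for C4b and −1.72 for Igfbp3. It was −7.46 for Gm2223, −6.61 for Gm36569 and −5.72 for Gm45090, gene models listed at 0 in both WT NULL libraries, where a fold is not defined.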

How the results depend on the processing

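The fit of the pair gave 3 genes, and 0 with the KO libraries alone and 27 with 6 groups. FL in KO gave 37, and 732 with no filter and 21 with the KO libraries alone. M in KO gave 5, and 814 with no filter, 3 with a mean of at least 50 and 1 with the KO libraries alone. FL against M gave 8, and 1271 with no filter. The genotype difference gave 20, and 12 with an added 8 and 3188 with 6 groups. Of the calls made with no filter, 679 of 732 for FL, 783 of 814 for M and 1221 of 1271 for FL against M were genes with a mean below 10. Leaving out each library in turn gave 0 to 8 genes for the pair, 6 to 37 for FL, 1 to 7 for M, 5 to 9 for FL against M and 0 to 5604 for the genotype difference. Over those fits the genotype difference of Il33 ran from −2.37 to 1.36 and that of Il1rl1 from −1.17 to 1.31, changing sign without a call. With a replicate block by NULL library number, the counts were 2 for the pair, 3 for FL, 1 for M, 1 for FL against M and 1 for the genotype difference, and Slc34a2 was not called in the pair (limma adjusted p = 0.1112). Whether the numbers pair the samples is not given by the labels. Across 15527 genes the NULL 2 minus NULL 1 differences of KO and WT correlated at r = 0.02. Each difference rests on single libraries, so this value does not settle the pairing. TMM and quantile scaling kept every count within 1.5 times. Each IL-33 virus has 1 library per genotype and the relation between NULL libraries is unknown, which limits every result. Low values near 1 read cannot be told from 0.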

Other observations

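By a rule written after the values were seen (at least 10 normalized counts in both libraries of one KO pair and at most 2 in both of the other), 7 genes met it with IL-33 as the higher pair and 2 pseudogenes with NULL as the higher pair. Besides Sftpc, Sftpb and Slc34a2 they were Gvin1, Zfp708, Gm10031 and the pseudogene Gm4149. Gvin1, a very large interferon-induced GTPase, was at 12.8 in KO FL and 13.3 in KO M and is listed at 0 in the 6 other fibroblast libraries. Its IL-33 values in KO cells are low, and whether the listed 0 values are failed estimates was not tested. Zfp708, a zinc finger gene, was at 15.3 and 26.9 in KO cells and at 20.6 and 9.18 in WT cells with FL and M, and is listed at 0 in all 4 NULL libraries.

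The KO libraries were closer to each other than to WT cells. Among 12559 genes with a mean of at least 50, 105 and 84 were more than 2-fold apart between KO FL and the 2 KO NULL libraries, 88 and 76 between KO M and the same libraries, 96 between KO FL and KO M, and 51 between the KO NULL libraries. Between WT FL and the WT NULL libraries 271 and 280 were. In a principal component analysis of the 4 KO libraries the first component (41.2% of the variance) placed KO FL at −34.5, KO M at −4.9 and KO NULL at 25.3 and 14.0. The second (32.0%) placed KO M at −33.0, against 16.4 for KO FL and 15.1 and 1.5 for KO NULL.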
